A study of Mus musculus with 5 samples.

Results

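The 8 Adamts targets described here are Adamts1, Adamts2, Adamts4, Adamts5, Adamts9, Adamts12, Adamts15 and Adamts20, taken by name from the 19346 targets tested in the series. A further 11 members of the family were measured and are given only as a list. RNA was profiled by GeoMx, which counts barcoded probes released by light from regions drawn on a tissue section, in coronal knee sections of mouse embryos at E14.5. The series concerns PDGF receptor alpha signaling in the forming synovial joint.

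The GOF animals carry Prrx1-Cre together with a Pdgfra gain-of-function allele, and the controls carry Prrx1-Cre without that allele. The Prrx1-Cre driver, shared by all 4 animals, is active in limb bud mesenchyme and its descendants, which include cartilage, tendon and joint tissue but not muscle fibres, vessels or blood. There were 2 animals of each genotype. Regions numbered 47 and 46 in GOF replicates 1 and 2, and 46 and 40 in control replicates 1 and 2. They were chosen from tissue shape and a Sox9 protein stain, so their cartilage content was part of the choice. By their tags they were inter-joint space, inter-joint perichondrium, border-zone cartilage, fusion regions found in GOF animals alone, and 1 reference cartilage and 1 reference mesenchyme region per animal.

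ADAMTS proteins are secreted zinc proteases that carry thrombospondin repeats and act on the extracellular matrix. One branch, to which Adamts1, Adamts4, Adamts5, Adamts9, Adamts15 and Adamts20 belong, cleaves the large aggregating proteoglycans aggrecan and versican. Adamts2 removes the amino-terminal propeptide of fibrillar procollagens, and Adamts12 cleaves cartilage oligomeric matrix protein. In a forming joint the interzone, marked by Gdf5, loses cartilage character while versican-rich matrix is turned over nearby.

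Signal is the probe count scaled by the authors to a common upper quartile, on a linear scale, and levels below are means over the regions of an animal. The negative probe, which measures background, had a median of 2.81 with a range of 1.72 to 4.29. A region held 55471 to 617062 recovered counts (median 217177). The median region read Adamts12 at 13 counts, Adamts9 at 13, Adamts15 at 10 and Adamts1 at 9. It read Adamts2 at 7 counts, Adamts5 at 6, and Adamts4 and Adamts20 at 5 each. Signal exceeded 2 times the negative probe in 95% of regions for Adamts9 and for Adamts12, in 87.7% for Adamts1 and in 77.7% for Adamts15. For Adamts2 this held in 66.5% of regions, for Adamts5 in 53.6%, for Adamts20 in 43% and for Adamts4 in 41.3%, so values of the last 2 lie near background in most regions and any change in them is understated. A lower level in a region can come from fewer cells that express a gene or from less RNA per cell, and these cannot be told apart.

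Tags were checked against cell markers. The summed signal of 8 cartilage markers was 814 and 1021 in GOF inter-joint space and 791 and 731 in control inter-joint space, against 3844 and 4936 in GOF border-zone cartilage and 4549 and 4986 in control border-zone cartilage. Fusion regions lay between at 3067 and 3620. Inter-joint perichondrium read 1163 and 2276 in GOF replicates 1 and 2 and 1877 and 1692 in control replicates 1 and 2. The joint marker Gdf5 read 17.5 and 26.3 in GOF inter-joint space, against 80.4 and 70 in control inter-joint space. Reference mesenchyme held muscle and tendon genes, and in GOF replicate 2 it was low for tendon genes (Tnmd 9.06, against 30.5 in GOF replicate 1 and 72.9 and 69.1 in control replicates 1 and 2) and high for the red cell gene Hba-a1 (792). Hba-a1 was also high in inter-joint space of GOF replicate 2 (222).

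Annotation in GRCm38.p6, the mm10 assembly, places Adamts1 (chr16:85793827-85803113) beside Adamts5 (chr16:85858157-85901125). Adamts12 (chr15:11064773-11349232) and Adamts20 (chr15:94268314-94432074) share a chromosome and lie far apart. The others are Adamts15 (chr9:30899155-30922452), Adamts9 (chr6:92772699-92944450), Adamts2 (chr11:50602085-50807573) and Adamts4 (chr1:171250129-171262267). RefSeq promoter windows were found for 5 of the 8. Those of Adamts1, Adamts9 and Adamts12 are shown because these genes moved in opposite directions in the comparisons below. Each is the 250 bases before the start, 5′ to 3′ on the gene's strand, from RefSeq on GRCm38.p6, with motif matches in capitals (TATAAA, and GGGCGG or its reverse complement CCGCCC).
Adamts1 (chr16:85803114-85803363, minus strand): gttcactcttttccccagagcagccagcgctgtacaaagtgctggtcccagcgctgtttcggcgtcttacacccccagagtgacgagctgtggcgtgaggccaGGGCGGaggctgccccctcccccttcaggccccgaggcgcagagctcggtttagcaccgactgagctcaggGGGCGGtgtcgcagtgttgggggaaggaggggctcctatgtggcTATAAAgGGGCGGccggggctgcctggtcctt
Adamts9 (chr6:92943535-92943784, minus strand): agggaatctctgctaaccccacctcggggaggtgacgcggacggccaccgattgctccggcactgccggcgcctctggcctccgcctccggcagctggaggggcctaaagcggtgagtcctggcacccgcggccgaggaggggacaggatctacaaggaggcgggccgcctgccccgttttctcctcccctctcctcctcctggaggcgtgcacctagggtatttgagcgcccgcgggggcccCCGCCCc
Adamts12 (chr15:11064523-11064772, plus strand): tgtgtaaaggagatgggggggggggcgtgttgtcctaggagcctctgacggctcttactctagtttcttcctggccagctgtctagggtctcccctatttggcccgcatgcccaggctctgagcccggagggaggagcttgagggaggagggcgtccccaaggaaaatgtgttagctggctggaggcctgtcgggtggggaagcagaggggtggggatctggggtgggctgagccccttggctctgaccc

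Motifs were searched on both strands of the 300-base windows, which add 50 bases after the start, and matches of different motifs did not overlap. Adamts1 held a TATAAA match at position -32 relative to the start and GGGCGG matches at -147, -76 and -25. Adamts9 held a GGGCGG match on the opposite strand at -7 relative to the start that RefSeq gives, which lies inside the outermost span of the gene. Adamts12 held no match to any of the 5 motifs. Over 32851 promoters, TATAAA was present in 13.6% and GGGCGG in 35.7%. The other motifs searched were GCGNGGGCG (an EGR site, 5.55% of promoters), TGANTCA (AP-1, 7.81%) and CCGGAAG (ETS, 8.86%), with no match in any member's window. GC content was 64.7% for Adamts1, 70% for Adamts9 and 62% for Adamts12, against a median of 52.7% for all promoters. These matches are descriptions of the windows.

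**Figure D1:**
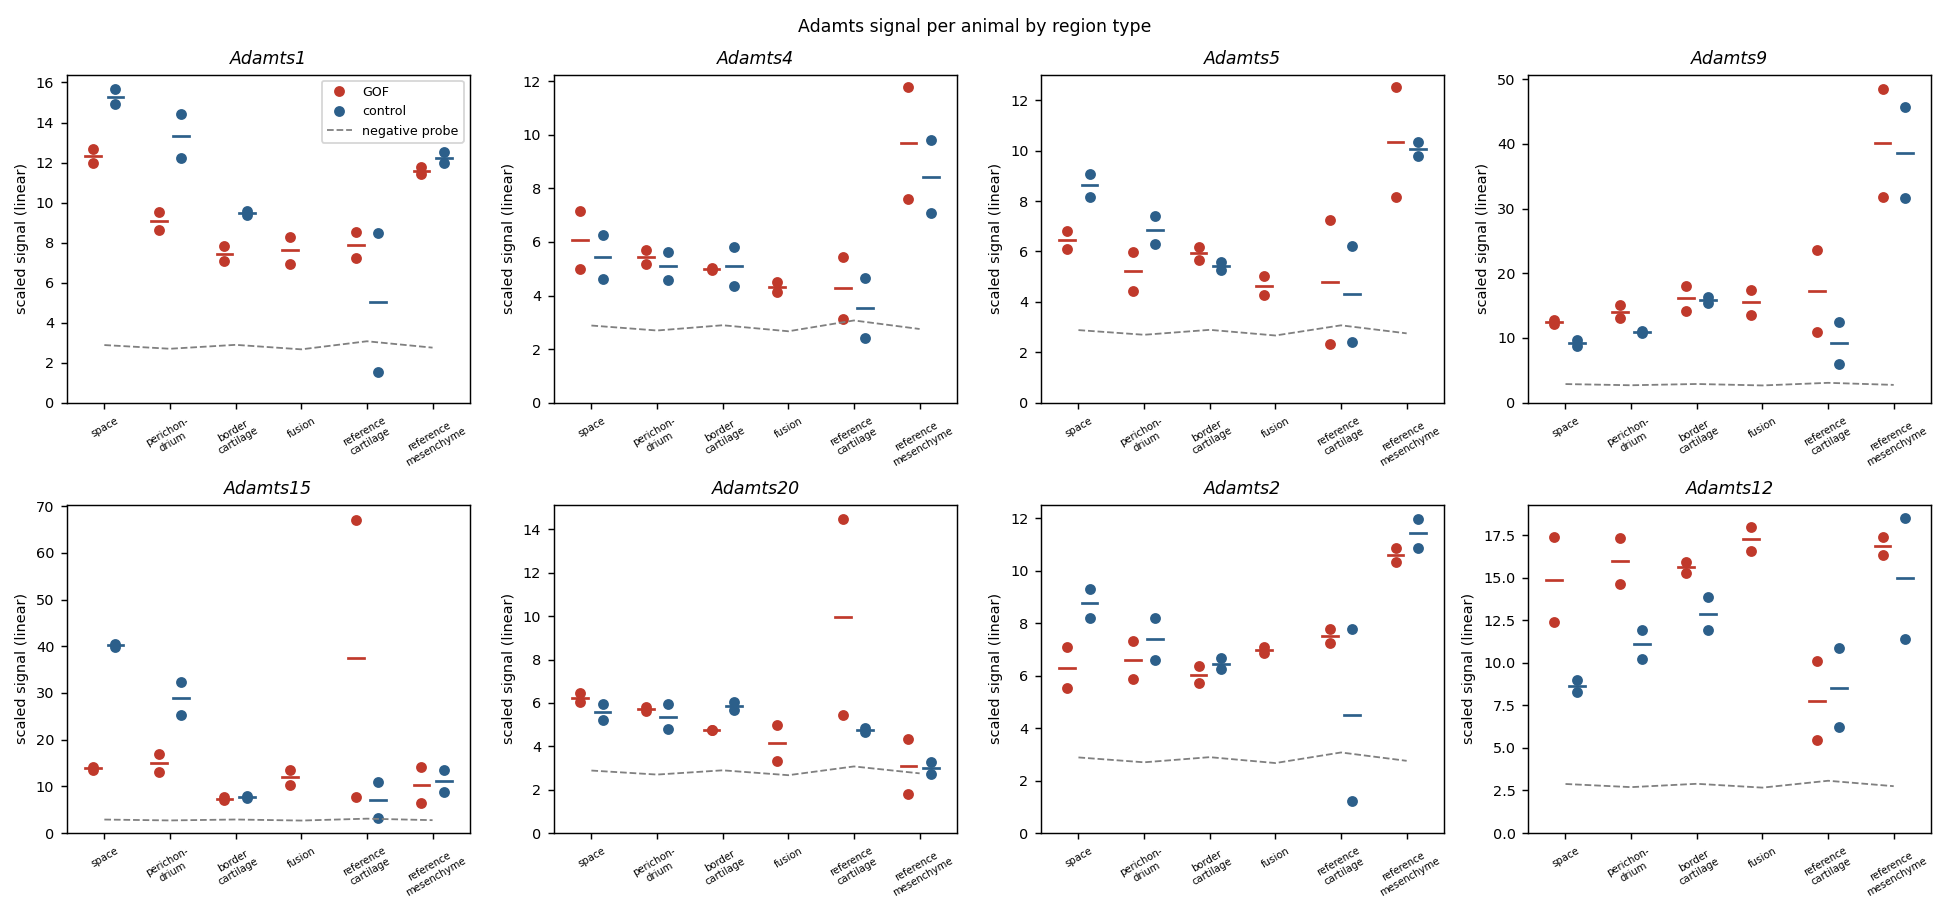
Mean scaled signal (linear axis) of each Adamts gene in each region type; each point is 1 animal, short bars are means of 2 animals, and the dashed line is the negative probe. Adamts15 in inter-joint space sits at 13.6 and 14.1 in GOF animals and at 40.6 and 39.9 in control animals, and GOF replicate 2 reference cartilage stands at 67.1.

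For tests, log2(signal + 1) was averaged per animal and region type and compared with limma. P-values were adjusted over all 19346 targets, and a call required an adjusted p under 0.05. The fit over all region types includes the reference types, each of which rests on 1 region per animal. A second limma fit used joint and fusion regions only. Recovered counts of all region types, the reference types included, were used for edgeR and DESeq2. Printed levels are arithmetic means over regions, whereas limma differences are of mean logs, so these scales need not give the same ratio. Differences from edgeR and DESeq2 come from counts summed over the regions of an animal and region type. Regions with more counts weigh more there, and those models hold no term for animal. The limma fit over all region types called 0 of the 8 genes in each of 16 contrasts. The share of all targets it called was 0.103% for GOF against control inter-joint space, 0.0155% for perichondrium and 0.00517% for border-zone cartilage. It was 0.729% for fusion against control inter-joint space, 0.222% for fusion against GOF inter-joint space, 0% for fusion against GOF perichondrium and 0.0103% for fusion against GOF border-zone cartilage. Between region types it was 1.3%, 0% and 0.186% in control animals (space over border, space over perichondrium, perichondrium over border) and 0.501%, 0% and 0.0103% for these contrasts in GOF animals. It was 0% for each of 3 differences between genotype effects. At an unadjusted p below 0.05 this fit listed 2 members for GOF against control inter-joint space, 5 for fusion against control inter-joint space and 2 for space over border in controls. Of all 19346 targets, 409, 715 and 890 passed this unadjusted threshold in these 3 contrasts, in that order. At most 1 member passed it in any other contrast, which is not read as a result. Calls below come from the other fits and are named with their tool. With 2 animals per genotype, p-values rest on spread pooled over region types and targets, and no permutation of animals reaches 0.05.

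Among the proteoglycan-cleaving members, Adamts15 had the widest separation between genotypes, in inter-joint space. It averaged 13.8 ± 0.358 in GOF inter-joint space and 40.2 ± 0.505 in control inter-joint space (SD, n = 2 animals each), with 13.6 and 14.1 in the GOF animals and 40.6 and 39.9 in the control animals. Over single regions, the lowest, median and highest values were 3.77, 10.9 and 42.6 in GOF replicate 1 and 4.08, 11.6 and 47.7 in GOF replicate 2. They were 15.2, 34.8 and 72.1 in control replicate 1 and 10.9, 28.3 and 95.2 in control replicate 2. Animal means of the genotypes did not overlap, while single regions did. The log2 difference was -1.59 (95% interval -2.81 to -0.37 in the limma fit over all region types, unadjusted p = 0.0133, adjusted p = 1). It was called lower in GOF by limma over joint and fusion regions (interval -1.90 to -1.28, adjusted p = 5.45e-10) and by edgeR (-1.50, adjusted p = 8.26e-05). DESeq2 gave -1.48 with an adjusted p of 0.359.

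The SE of this difference was 0.587 in limma over all region types and 0.38 when 1 region was left out. The reference cartilage region of GOF replicate 2 read 67.1, from 37 counts (95% Poisson interval 47.2 to 92.5, counting error only), against 7.77 in GOF replicate 1 and 3.11 and 10.9 in control replicates 1 and 2. With 1 added to each value, that is 5.73 times the highest other reference cartilage value, the largest such ratio among all 19346 targets. The region was otherwise rich in cartilage transcripts, with Col2a1 at 6630 and Gdf5 at 3.63. With this region left out, an alternative chosen after its value was seen, Adamts15 was called in 2 contrasts described below.

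In inter-joint perichondrium, Adamts15 averaged 15 ± 2.78 in GOF animals and 28.8 ± 5.03 in control animals (SD, n = 2 each). The animals read 13 and 17 in GOF and 25.3 and 32.4 in controls, without overlap. The difference was -0.84 on the log2 scale (SE 0.587, adjusted p = 1 in limma over all region types). It was called lower in GOF by limma over joint and fusion regions (adjusted p = 0.000633) and by edgeR (-1.10, adjusted p = 0.00261), and not by DESeq2 (-1.08, adjusted p = 0.743). In border-zone cartilage Adamts15 read 7.09 and 7.69 in GOF animals and 7.98 and 7.60 in control animals, which overlap, and no fit called a difference. The difference between the genotype effect in inter-joint space and that in border-zone cartilage was -1.41. Limma over joint and fusion regions called it (adjusted p = 1.57e-05), while limma over all region types (adjusted p = 1) and edgeR (adjusted p = 0.0846) did not.

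**Figure D2:**
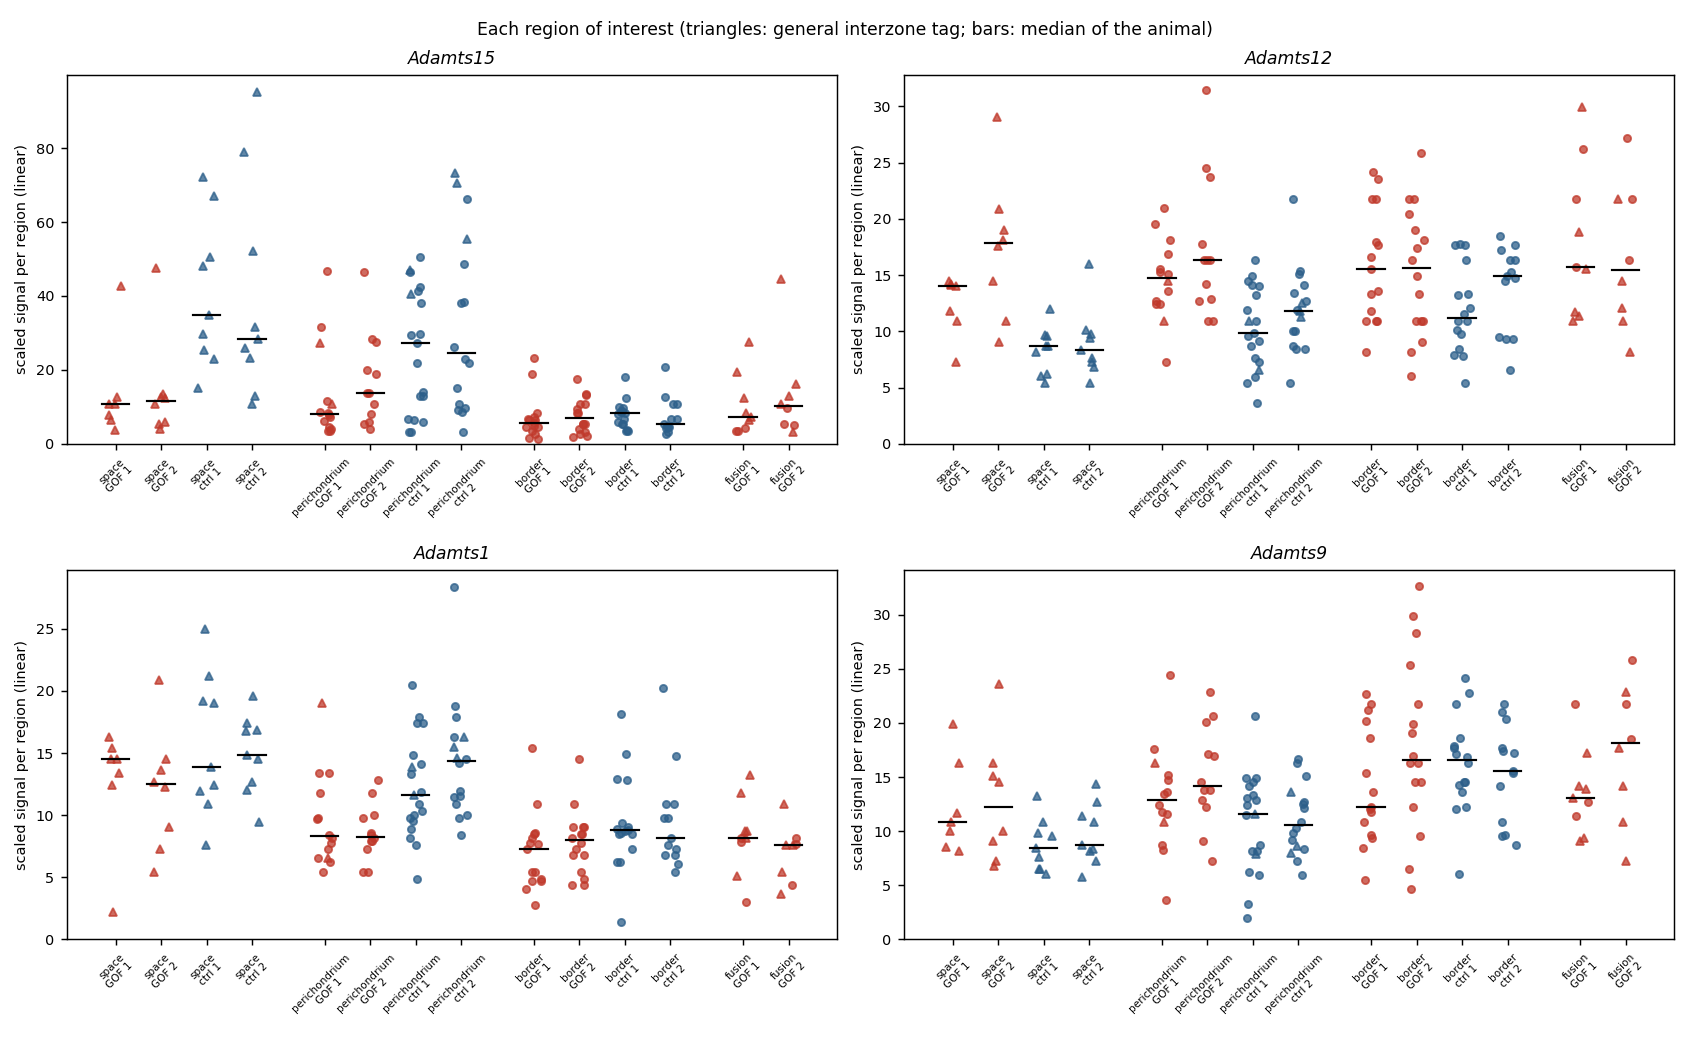
Scaled signal (linear axis) of Adamts15, Adamts12, Adamts1 and Adamts9 in every joint and fusion region, by region type and animal; triangles carry the general interzone tag and bars are medians. Adamts15 medians in inter-joint space are 10.9 and 11.6 in GOF animals and 34.8 and 28.3 in control animals, with single regions as high as 95.2.

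Adamts1, a protease of aggrecan and versican, was highest in inter-joint space of both genotypes among joint regions. It read 12.7 and 12 in GOF inter-joint space and 15.7 and 14.9 in control inter-joint space. In perichondrium it read 9.53 and 8.62 in GOF animals and 12.2 and 14.4 in control animals, and in border-zone cartilage 7.07 and 7.83 in GOF animals and 9.39 and 9.57 in control animals. GOF animals lay below control animals in all 3 joint region types, with no overlap. The log2 differences were -0.36 in space, -0.50 in perichondrium and -0.29 in border-zone cartilage. Only the perichondrium difference was called lower in GOF, by edgeR (-0.58, adjusted p = 0.0136) and DESeq2 (-0.58, adjusted p = 0.00304). Limma over joint and fusion regions gave it an adjusted p of 0.102.

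Adamts5, the main aggrecanase of mouse cartilage, read 6.10 and 6.82 in GOF inter-joint space and 8.18 and 9.08 in control inter-joint space, without overlap. In perichondrium it read 5.98 and 4.44 in GOF animals and 6.31 and 7.39 in control animals. The log2 differences of -0.44 and -0.38 were not called (limma over joint and fusion regions, adjusted p = 0.202 and 0.669). Border-zone cartilage read 6.19 and 5.65 in GOF animals and 5.58 and 5.25 in control animals, here higher in GOF and also without overlap. These values lie near background. Signal exceeded 2 times the negative probe in 5 of 15 and 7 of 16 GOF regions there, and in 5 of 16 and 6 of 13 control regions.

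Adamts9, which cleaves versican, read higher in GOF animals in inter-joint space and in perichondrium. It read 12.2 and 12.8 in GOF inter-joint space and 8.73 and 9.73 in control inter-joint space, and 13 and 15.1 in GOF perichondrium against 10.7 and 11.1 in control perichondrium. Neither pair of groups overlapped. The log2 differences were 0.36 and 0.35 and were not called (limma over joint and fusion regions, adjusted p = 0.204 and 0.493). In border-zone cartilage the GOF animals, at 14.2 and 18, spanned the control animals, at 16.3 and 15.3.

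Adamts4, an inducible aggrecanase, read 7.17 and 5.01 in GOF inter-joint space and 6.25 and 4.60 in control inter-joint space, with overlap. Adamts20, a versican protease known for pigment cell migration in mice, read 6.04 and 6.46 in GOF inter-joint space and 5.93 and 5.22 in control inter-joint space. In border-zone cartilage Adamts20 was lower in GOF animals, at 4.76 and 4.74 against 6.04 and 5.65 in control animals. The genotypes did not overlap for Adamts20 in either of these region types. Neither Adamts4 nor Adamts20 was called between genotypes in any joint region type by any of the 4 fits. Both lie near background, so a difference may not have been detectable at this depth.

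Adamts2, the procollagen N-proteinase, read 5.51 and 7.07 in GOF inter-joint space and 9.29 and 8.21 in control inter-joint space. The groups did not overlap, and the log2 difference of -0.48 was not called (limma over joint and fusion regions, adjusted p = 0.146). In perichondrium it read 5.85 and 7.30 in GOF animals and 6.61 and 8.18 in control animals, and in border-zone cartilage 5.70 and 6.37 in GOF animals and 6.24 and 6.65 in control animals, with overlap in both.

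Adamts12, which cleaves cartilage oligomeric matrix protein, was higher in GOF inter-joint space. It read 12.4 and 17.4 in GOF animals and 8.28 and 8.98 in control animals, averaging 14.9 ± 3.52 in GOF and 8.63 ± 0.498 in control inter-joint space (SD, n = 2 each). The log2 difference was 0.70 (SE 0.28, unadjusted p = 0.0216, adjusted p = 1 in limma over all region types). It was called higher in GOF by limma over joint and fusion regions (adjusted p = 0.00172), by edgeR (0.79, adjusted p = 0.00522) and by DESeq2 (0.79, adjusted p = 0.00169). In perichondrium it read 14.6 and 17.3 in GOF animals and 10.2 and 11.9 in control animals, again without overlap. That difference was called higher by edgeR (0.55, adjusted p = 0.0416) and DESeq2 (0.55, adjusted p = 0.0277), and not by limma over joint and fusion regions (0.51, adjusted p = 0.0916). In border-zone cartilage it read 15.9 and 15.3 in GOF animals and 11.9 and 13.9 in control animals, and no fit called it.

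Counted over the 8 genes, the genotype difference in inter-joint space was called for 1 higher and 1 lower by limma over joint and fusion regions (2.69% of all targets called), for 1 higher and 1 lower by edgeR (1.86%) and for 1 higher by DESeq2 (2.89% of the targets it kept). In perichondrium the counts were 1 lower (1.03%), 1 higher and 2 lower (1.18%) and 1 higher and 1 lower (2.01%) by these tools in that order. In border-zone cartilage limma over joint and fusion regions called 0 of 8 (0.212%). The median difference over the 8 genes in inter-joint space was -0.113 in limma over all region types, against -0.035 over all targets. Animals of the genotypes did not overlap for 7 of 8 genes in inter-joint space, where 38.6% of all targets do not overlap. The corresponding counts were 5 of 8 in perichondrium (37.1%) and 4 of 8 in border-zone cartilage (37.3%). Limma over joint and fusion regions called 0.765% of targets for the genotype effect in space against that in border-zone cartilage, with Adamts15 the member called. It called 0.0155% for space against perichondrium and 0.0672% for perichondrium against border-zone cartilage, with 0 members in either.

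Other cell markers moved with these comparisons. The summed signal of 8 interzone markers, Gdf5 among them, was 297 and 359 in GOF inter-joint space and 556 and 599 in control inter-joint space. The 8 endothelial markers summed to 65.5 and 66.2 in GOF inter-joint space, with all 8 above 2 times the negative probe, and to 47.5 and 46.4 in control inter-joint space, with 3 above it. The 6 fibrous markers summed to 606 and 771 in GOF and to 1057 and 1098 in control inter-joint space, and the 5 tendon markers to 61.9 and 97 in GOF and to 122.5 and 132.8 in control inter-joint space. In perichondrium the interzone markers summed to 269 and 305 in GOF animals and 341 and 444 in control animals. The fibrous markers there summed to 599 and 674 in GOF animals and 802 and 933 in control animals, and the tendon markers to 60 and 77.1 in GOF animals and 111.7 and 109.1 in control animals. The part of these markers in the Adamts differences was not tested.

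**Figure D3:**
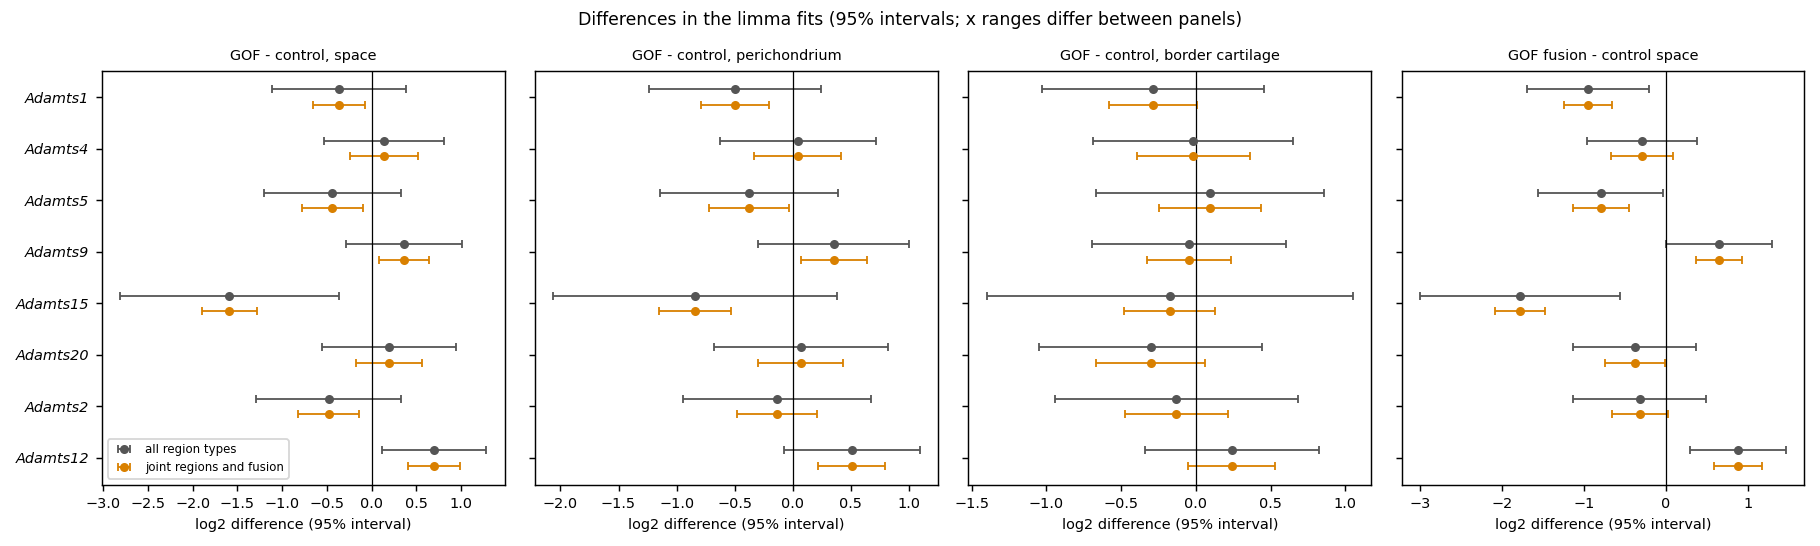
Log2 differences with 95% intervals for the 8 genes in 4 contrasts, from limma over all region types (grey) and over joint and fusion regions (orange); x ranges differ between panels. Adamts15 lies at -1.59 for GOF against control inter-joint space and at -1.78 for fusion against control inter-joint space, with wider intervals in the fit over all region types.

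Regions with the fusion tag were drawn in GOF animals alone, so genotype and tissue cannot be told apart when they are set against control inter-joint space. Against control inter-joint space, Adamts15 and Adamts1 were lower and Adamts12 and Adamts9 higher. Adamts15 read 10.3 and 13.6 in fusion regions, against 40.6 and 39.9 in control inter-joint space, a log2 difference of -1.78 (limma over joint and fusion regions, adjusted p = 7.29e-12). DESeq2 did not call it (-1.77, adjusted p = 0.0977), and limma over all region types gave an adjusted p of 0.367. Adamts1 read 8.29 and 6.92 in fusion regions, against 15.7 and 14.9 in control inter-joint space (-0.94, limma over joint and fusion regions, adjusted p = 7.64e-06). Adamts5 read 5.03 and 4.26 in fusion regions, against 8.18 and 9.08 in control inter-joint space (-0.79, limma, same regions, adjusted p = 0.00128). It lay near background in fusion regions, above 2 times the negative probe in 4 of 9 in GOF replicate 1 and 2 of 8 in GOF replicate 2. No fusion animal overlapped a control animal for Adamts15, Adamts1 or Adamts5.

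Adamts12 read 18 and 16.6 in fusion regions, against 8.28 and 8.98 in control inter-joint space (0.88, limma over joint and fusion regions, adjusted p = 2.37e-05). Adamts9 read 13.6 and 17.4 in fusion regions, against 8.73 and 9.73 in control inter-joint space (0.65, limma over joint and fusion regions, adjusted p = 0.00128). Both groups stayed apart. In this contrast 5 of 8 genes were called by limma over joint and fusion regions (5.21% of all targets) and by edgeR (4.15%), and 4 of 8 by DESeq2 (6.87%), which left out Adamts15. When interzone-tagged regions were left out of fusion and perichondrium only, untagged fusion regions were set against control inter-joint space, all of whose regions carry the tag. Limma over all region types then called Adamts15 (-2.54, adjusted p = 0.024) and Adamts12 (1.24, adjusted p = 0.0206), with 1.42% of targets called. With the GOF replicate 2 reference cartilage region left out limma called Adamts15 (adjusted p = 0.0247, 0.956%). Fusion and control animals did not overlap for any of the 8 genes, where 42.1% of all targets do not overlap. This contrast and the GOF against control contrast in inter-joint space share the control animals, so their values are not independent.

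Fusion regions were also set against the other region types of the GOF animals. Against GOF inter-joint space, the animal means did not overlap for 6 of the 8 genes, 1 higher and 5 lower in fusion regions, where 37.4% of all targets do not overlap. There Adamts1 (8.29 and 6.92 in fusion regions, 12.7 and 12 in GOF inter-joint space) was lower by limma over joint and fusion regions (-0.58, adjusted p = 0.00461), edgeR (-0.71, adjusted p = 0.0117) and DESeq2 (-0.70, adjusted p = 0.00379). Adamts20, near background at 4.99 and 3.30 in fusion regions against 6.04 and 6.46 in GOF inter-joint space, was called lower by limma over joint and fusion regions alone (-0.57, adjusted p = 0.0362). The share of all targets called was 4.57% by that fit, 2.17% by edgeR and 4.25% by DESeq2. Against GOF perichondrium it called 0 of 8 (1.47%). Against GOF border-zone cartilage it called Adamts15 higher in fusion regions (10.3 and 13.6, against 7.09 and 7.69 in border-zone cartilage, 0.53, adjusted p = 0.0457, 1.19% of targets). The difference was -0.23 with interzone-tagged fusion regions left out (limma over all region types, adjusted p = 1).

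Fusion regions varied with their second tag. Adamts15 averaged 13.6 in 6 interzone-tagged and 3.77 in 3 untagged fusion regions of GOF replicate 1, and 17.6 in 5 tagged and 6.78 in 3 untagged regions of GOF replicate 2. Adamts12 ran the opposite way, at 16.4 tagged and 21.2 untagged in GOF replicate 1 and 13.5 tagged and 21.8 untagged in GOF replicate 2. Control perichondrium showed the pattern for Adamts15 too, at 43.8 in 2 tagged and 23.1 in 17 untagged regions of control replicate 1 and 66.3 in 3 tagged and 24.5 in 13 untagged regions of control replicate 2. These are counts of regions within animals and were not tested.

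Within control animals, Adamts15 differed between region types. Inter-joint space stood at 40.6 and 39.9, perichondrium at 25.3 and 32.4 and border-zone cartilage at 7.98 and 7.60, with no overlap between neighbours. Space over border-zone cartilage was 2.13 on the log2 scale (limma over all region types, unadjusted p = 0.00139, adjusted p = 0.0888). It was called by limma over joint and fusion regions (adjusted p = 1.73e-15), edgeR (2.34, adjusted p = 9.98e-10) and DESeq2 (2.34, adjusted p = 0.00661), and by limma with the GOF replicate 2 reference cartilage region left out (adjusted p = 0.00268, 1.64% of targets called). With the negative probe subtracted it was 2.80 (limma over all region types, adjusted p = 0.137). Space over perichondrium was 0.66 (limma over joint and fusion regions, adjusted p = 0.00472, 1.6% of targets), and neither edgeR (0.32, adjusted p = 0.87) nor DESeq2 (0.32, adjusted p = 0.991) called it. The step of perichondrium over border-zone cartilage was 1.48 (same fit of limma, adjusted p = 3.17e-10).

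In control animals Adamts1 and Adamts5 were also higher in inter-joint space than in border-zone cartilage, and Adamts9 and Adamts12 were lower. Adamts1 read 15.7 and 14.9 in space against 9.39 and 9.57 in border-zone cartilage (0.68, limma over joint and fusion regions, adjusted p = 0.000292). Adamts5 read 8.18 and 9.08 in space against 5.58 and 5.25 in border-zone cartilage (0.64, limma, same regions, adjusted p = 0.00492). Adamts9 read 8.73 and 9.73 in space against 16.3 and 15.3 in border-zone cartilage (-0.70, limma, same regions, adjusted p = 0.000116). Adamts12 read 8.28 and 8.98 in space against 11.9 and 13.9 in border-zone cartilage (-0.51, limma, same regions, adjusted p = 0.00921). Thus 5 of 8 genes were called, 3 higher and 2 lower in space, by limma over joint and fusion regions (7.43% of all targets), edgeR (5.33%) and DESeq2 (10.2%). Space and border-zone animals did not overlap for 6 of 8 genes, against 43.4% of all targets. For perichondrium over border-zone cartilage, Adamts1, Adamts9 and Adamts15 were called by limma over joint and fusion regions (2.7%) and edgeR (2.31%), and Adamts1 by DESeq2 (4.34%).

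The same contrasts were made within GOF animals. For Adamts15, inter-joint space stood at 13.6 and 14.1, perichondrium at 13 and 17 and border-zone cartilage at 7.09 and 7.69. Space over border-zone cartilage was 0.72 (limma over joint and fusion regions, adjusted p = 0.000409) and perichondrium over border-zone cartilage was 0.81 (same fit of limma, adjusted p = 0.000167, 1.86% of targets), and neither edgeR nor DESeq2 called them. Adamts1 was higher in space than in border-zone cartilage (0.61, limma over joint and fusion regions, adjusted p = 0.00213), also by edgeR (0.71, adjusted p = 0.00547) and DESeq2 (0.71, adjusted p = 0.00129). For that contrast 5.37% of targets were called by limma over joint and fusion regions, 2.84% by edgeR and 5.52% by DESeq2. For space over perichondrium limma over joint and fusion regions called 0 of 8 (0.625%).

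Ordered over all groups, Adamts15 was highest in control inter-joint space (40.2), GOF reference cartilage (37.4, from 1 high region) and control perichondrium (28.8). GOF reference cartilage did not differ from the other 2 beyond its spread (SD 41.9, n = 2). Animals of control inter-joint space and control perichondrium did not overlap. Adamts9 was highest in reference mesenchyme, at 48.4 and 31.7 in GOF animals and 31.5 and 45.7 in control animals, which overlap. Its next level, GOF reference cartilage at 17.2, lay beyond that spread. Adamts12 was highest in fusion regions (17.3), but GOF reference mesenchyme (16.9) and GOF perichondrium (16) did not differ from their neighbours beyond the spread, and control inter-joint space was lowest among joint regions (8.63). Adamts4 and Adamts5 had their highest means in GOF reference mesenchyme (9.70 ± 2.95 and 10.3 ± 3.08, SD, n = 2), with control reference mesenchyme at 8.43 ± 1.92 and 10.1 ± 0.385. Reference types were not tested.

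**Figure D4:**
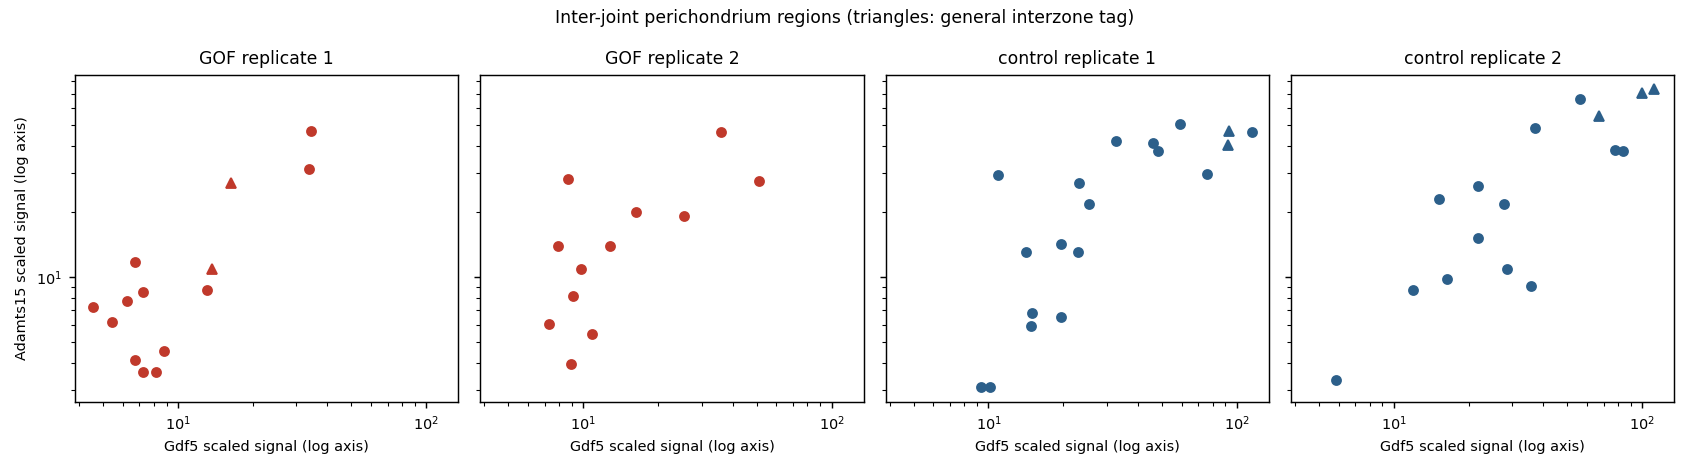
Adamts15 against Gdf5 in single inter-joint perichondrium regions, 1 panel per animal, scaled signal on log axes; triangles carry the interzone tag. The 2 genes vary together within each animal, with Pearson r between 0.689 and 0.856.

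Across single perichondrium regions, Adamts15 varied with Gdf5. Pearson r on log2(signal + 1) was 0.828 in GOF replicate 1 (n = 14 regions), 0.689 in GOF replicate 2 (n = 12), 0.801 in control replicate 1 (n = 19) and 0.856 in control replicate 2 (n = 16). Points within an r share an animal and differ in depth, and r of Adamts15 with the log of the region total was -0.366, 0.659, 0.212 and 0.508 in the same order. With Col2a1 it lay between -0.033 and 0.176. With Sfrp2, one of the interzone markers, it was 0.051 and 0.225 in GOF replicates 1 and 2 and 0.871 and 0.88 in control replicates 1 and 2. Over 22 animal means of region types, the targets most like Adamts15 were Cdh13 (r = 0.829), Iglon5 (0.805) and Krt80 (0.793), while over the 14 means of joint and fusion regions, chosen after the first were seen, they were Arhgap42 (0.976), Lpar1 (0.969) and Gdf5 (0.967).

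For the other members over the 22 means, the most alike targets were Map1lc3a (0.873) for Adamts1, Amot (0.915) for Adamts9, Zmym6 (0.776) for Adamts12, Nubp1 (0.912) for Adamts2 and Basp1 (0.877) for Adamts5. Among members, over 14 means, r was 0.861 for Adamts1 with Adamts15, 0.849 for Adamts1 with Adamts5 and 0.731 for Adamts9 with Adamts12, against -0.838 for Adamts9 with Adamts15 and -0.746 for Adamts12 with Adamts15. Over the 22 means these r were 0.526, 0.338, 0.317, -0.056 and -0.451 in the same order. The means share animals and libraries.

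Of the 11 other ADAMTS genes, limma over all region types called 0 in each of the 3 main contrasts. Limma over joint and fusion regions called 1 higher and 1 lower in GOF against control inter-joint space, Adamts17 (11 and 16.7 in GOF, 8.25 and 9.74 in control, 0.62, adjusted p = 0.0323) and Adamts6 (9.52 and 9.98 in GOF, 16 and 15.3 in control, -0.63, adjusted p = 0.00701). The median over the 11 was -0.123, against -0.035 for all targets. Of 7 measured ADAMTS-like genes, which lack the protease domain, Thsd4 was higher in fusion regions (25.7 and 25, against 8.69 and 8.05 in control inter-joint space, 1.22, limma over all region types, adjusted p = 0.0331). Adamtsl1 was lower there (8.25 and 9.03, against 20.9 and 22.8 in control inter-joint space, -1.29, limma over joint and fusion regions, adjusted p = 2.48e-09).

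A list of 8 genes held proteoglycans, which are substrates of the first branch, and their link proteins. Of these 8, limma over all region types called 0 between genotypes in inter-joint space. It called Acan (157.7 and 170.3 in fusion regions, 54.6 and 51.1 in control inter-joint space, 1.68, adjusted p = 0.00419) and Hapln1 (118.3 and 116.2 in fusion regions, 31.7 and 29.9 in control inter-joint space, 1.78, adjusted p = 0.000396) higher in fusion regions, and limma over joint and fusion regions also called Vcan lower there. In control animals Vcan was higher in space (77.3 and 79.6) than in border-zone cartilage (30.7 and 34.5), with a difference of 1.27 (limma over all region types, adjusted p = 0.0354), and Acan and Hapln1 were lower.

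Of 11 genes of procollagens and their processing, limma over all region types called Col5a2 lower in GOF inter-joint space (53.2 and 48.9, against 113.9 and 116.2 in control, -1.12, adjusted p = 0.0148). That fit of limma called Col2a1 higher in fusion regions (2200 and 2640, against 503 and 469 in control inter-joint space, 2.30, adjusted p = 2.41e-05). Col5a1 was called lower in fusion regions (108.9 and 107.5, against 186.7 and 208.8 in control inter-joint space, -0.86, limma over all region types, adjusted p = 0.0314). Of 6 COMP, fibronectin and microfibril genes, it called Fbn2 lower in GOF inter-joint space (63.9 and 72.8, against 207 and 196 in control, -1.60, adjusted p = 0.00478). In fusion regions it called Fn1 lower (26.1 and 32.2, against 119.9 and 123.7 in control inter-joint space, -2.06, adjusted p = 0.000372 in limma) and Fbn2 lower (69.03 and 65.02, against 206.8 and 195.8 in control inter-joint space, -1.61, adjusted p = 0.000416 in limma). Comp, a substrate of Adamts12, read 20.4 and 23.8 in fusion regions and 9.09 and 9.82 in control inter-joint space (1.12, limma over joint and fusion regions, adjusted p = 4.31e-07; adjusted p = 0.0887 over all region types).

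Of 12 inhibitor, uptake and maturation genes, limma over all region types called 0 between genotypes in inter-joint space. Limma over joint and fusion regions called Timp3, an inhibitor of several ADAMTS proteases, higher (31.6 and 29.4 in GOF, 16.2 and 18.5 in control, 0.77, adjusted p = 0.000264). It called Timp2 lower (31.5 and 31.3 in GOF, 52.7 and 54.3 in control, -0.82, adjusted p = 3.82e-06), and Pofut2 lower as well.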

How the data were processed

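Signal came from the deposited table, in which the authors had scaled each region's counts to the same upper quartile, per the file headers. The submitters' processing notes list Seurat and mm10, and the counting pipeline was not given in the sources used here. Steps between low values gave back whole counts for 99.98% of values (tolerance 0.01). Log2(signal + 1) was averaged per animal and region type and fitted with limma 3.58.1 (R 4.3.3), with animal as a random block and Benjamini-Hochberg adjustment over 19346 targets. Alternatives were other pseudocounts, scalings, filters and region sets, each animal left out, edgeR 4.0.16 and DESeq2 1.42.0 on recovered counts (DESeq2 leaves some adjusted p-values unset). The limma script was tested on simulated data. All 8 members are described. Genes named from other lists were called in a contrast or were among the 3 highest of their list. Not every called gene of those lists is named, so an unnamed gene may have been called. The members and lists were chosen with earlier results of these data known. The difference between the GOF replicates was correlated over targets with that between the control replicates. This r was 0.032 to 0.052 over the joint region types. So low an r cannot exclude pairing or a shared batch, and the labels do not mention pairing. The labels do not say whether the animals were littermates.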

Additional observations from a re-analysis of the deposited data

Results flagged for a closer look

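Adamts15 read 67.1 in the reference cartilage region of GOF replicate 2, a region type outside the comparisons, against 7.77 in GOF replicate 1 and 3.11 and 10.9 in control replicates 1 and 2. Adamts20 (8 counts) and Adamts9 (23.6, 13 counts) were also above the other reference cartilage regions there.

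The genotype effect on Adamts15 in inter-joint space minus that in border-zone cartilage was -1.41 on the log2 scale, called by limma over joint and fusion regions and not by limma over all region types, edgeR or DESeq2.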

How the results depend on the processing

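Over 17 alternatives, 440 of 441 values of 26 member differences kept their direction. The 26 are the member differences called in at least 1 of these alternatives. They were thus picked from the same values, and member differences that were never called are not counted here. The alternatives reuse the same data, so the shared direction is no independent support. The exception was Adamts15 in fusion against GOF border-zone cartilage, at -0.23 with interzone-tagged regions left out of fusion and perichondrium. The number of members called was 0 in every contrast with limma over all region types. With joint and fusion regions only it was 2 in GOF against control inter-joint space, 1 in perichondrium, 5 in fusion against control inter-joint space, 2 in fusion against GOF inter-joint space, 1 in fusion against GOF border-zone cartilage, 5, 1 and 3 in control space over border, space over perichondrium and perichondrium over border, 2 and 1 in GOF space over border and perichondrium over border, and 1 for the genotype effect in space against border. With edgeR it was 2, 3 and 5 for space, perichondrium and fusion against control space, 1 for fusion against GOF space, 5 and 3 for control space and perichondrium over border, and 1 for GOF space over border. With DESeq2 these counts were 1, 2, 4, 1, 5, 1 and 1. In fusion against control inter-joint space it was 2 with tagged regions left out of fusion, against control inter-joint space that is tagged throughout, and 1 with the GOF replicate 2 reference cartilage region left out, which also gave 1 in control space over border. For the counts so far, the shares of all targets called are given with each contrast above. Fits that left out 1 animal had 1 animal in 1 genotype, so their calls are not counted. Adamts15 in control space over border kept its direction in them. With the replicate block, 0 members were called in each of the 16 contrasts, and the labels do not say that the numbers pair the animals. The cause of these differences was not tested. There were 2 animals per genotype, and median counts of the members ran from 5 to 13 per region.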
